A study of Mus musculus with 2 samples.

Results

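The 7 microRNA genes described here, Mir191, Mir425, Mir423, Mir186, Mir361, Mir320 and Mir151, are often used as references when other microRNAs are measured by quantitative PCR. They were taken by gene symbol in the GENCODE M21 annotation from the 2202 microRNA genes counted in each library, and all 7 symbols were found. The libraries came from the gastrocnemius, the large calf muscle, of male B6CASTF1/J mice aged 18 to 20 months, the F1 hybrid of C57BL/6J and CAST/EiJ. The labels name no treatment and form 1 group of 2 biological replicates with separate biosample records and a shared donor record. Whether these biosamples are 2 animals is not stated. Each p-value below therefore measures only how these samples differ, which may be technical.

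A reference microRNA is chosen because its level is thought to differ little between samples, so that the level of a target can be expressed relative to it. MicroRNAs are cut from hairpin precursors by Drosha and Dicer, and a mature strand of the hairpin guides Argonaute proteins to messenger RNAs that match its seed, here bases 2 to 8. A reference is useful only as far as its amount of RNA per unit of input is the same in the samples compared. The counts here give each gene's share of a library, not its amount per unit of input. These shares are compared between 2 libraries that carry the same labels.

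RefSeq sequences on GRCm38.p6, the assembly also called mm10, were matched for 5 of the 7 genes. Mir320 and Mir151 are named only. Both mature strands of the 5 hairpins are shown because the counts are per gene and do not separate the strands. The seed is in capitals:

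mmu-miR-191-5p: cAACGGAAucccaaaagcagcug

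mmu-miR-191-3p: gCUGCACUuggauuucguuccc

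mmu-miR-425-5p: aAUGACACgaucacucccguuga

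mmu-miR-425-3p: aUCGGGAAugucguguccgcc

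mmu-miR-423-5p: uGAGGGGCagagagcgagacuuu

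mmu-miR-423-3p: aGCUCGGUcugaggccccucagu

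mmu-miR-361-5p: uUAUCAGAaucuccagggguac

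mmu-miR-361-3p: uCCCCCAGgugugauucugauuugu

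mmu-miR-186-5p: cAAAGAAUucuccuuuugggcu

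mmu-miR-186-3p: gCCCUAAGgugaauuuuuuggg

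The 10 strands carried 10 different seeds, so these genes do not form a seed family. Among the 1679 mature microRNA names of the RefSeq table, 8 of the 10 seeds occurred in no other mature microRNA. The seed of miR-425-5p was shared with miR-489-3p and that of miR-423-5p with miR-6921-5p. The GC content of the strands ran from 40.9% in miR-186-5p to 65.2% in miR-423-3p, and the Mir186 hairpin had the lowest GC content of the 5 hairpins, at 33.8%. No stretch of 20 bases of any of the 7 precursors occurred in another microRNA gene at a different locus. Mir151 alone shared such a stretch with a transcript elsewhere in the annotation, of Klf3. Only 15.7% and 19.8% of reads were assigned to microRNA genes in replicates 1 and 2, and most others were multimapping. Whether some of those belong to the 7 genes was not tested.

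Most of the genes lie inside other genes. On mm10 (1-based), Mir191 (ENSMUSG00000105497.1) lies on chromosome 9 from 108568319 to 108568392 and Mir425 (ENSMUSG00000065579.1) from 108568777 to 108568861. Both are on the plus strand, 384 bases apart, and both overlap exons of the noncoding gene 4833445I07Rik. The 2 hairpins are shown in full because they overlap exons of the same gene and differed between the libraries in opposite directions. The mature strands are in capitals:

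Mir191: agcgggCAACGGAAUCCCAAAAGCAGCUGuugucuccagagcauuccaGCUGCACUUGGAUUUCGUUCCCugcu

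Mir425: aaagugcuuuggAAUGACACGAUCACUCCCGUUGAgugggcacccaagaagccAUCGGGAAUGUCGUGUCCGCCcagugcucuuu

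Mir423 (ENSMUSG00000065518.2) is intronic to Nsrp1 (chromosome 11, positions 77078064 to 77078172, minus strand), which encodes a splicing regulator. Its start is 263 bases downstream of the annotated start of Nsrp1. Mir186 (ENSMUSG00000065431.1) is intronic to Zranb2 (chromosome 3, positions 157544279 to 157544349, plus strand), another gene of RNA splicing. Mir361 (ENSMUSG00000065510.1) is intronic to Chm (chromosome X, positions 113074824 to 113074893, minus strand), which encodes Rab escort protein. Mir151 (ENSMUSG00000065612.1) is intronic to Ptk2 (chromosome 15, positions 73254815 to 73254882, minus strand), the focal adhesion kinase gene. Mir320 (ENSMUSG00000065528.1; chromosome 14, positions 70443510 to 70443591, plus strand) overlaps no annotated gene. It begins 63 bases from the start of Polr3d, a subunit gene of RNA polymerase III that runs the other way.

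Depth was 4442692 counts assigned to microRNA genes in replicate 1 and 2156222 in replicate 2, and levels are given as CPM, each gene's counts scaled to a common total. A count of 0 allowed up to 0.675 and 1.39 CPM, far below every level of the 7 genes. Intervals cover counting error only and take each read as independent. Reads amplified by PCR are not independent molecules, so the intervals may be too narrow. As a check of the tissue, striated muscle microRNA genes took 1.64% of assigned counts in replicate 1 and 6.57% in replicate 2, with all 10 listed genes detected. Mir206 made up most of both shares, and the other 9 genes took 0.461% and 0.418%. Multimapping reads are not in these shares. Levels and ratios of microRNAs with more than 1 locus, such as Mir1a and Mir133a, are thus uncertain and may be too low. Of the other cell types, the endothelial genes took 10.4% and 5.54%, the erythroid genes 0.0777% and 0.0109%, the leukocyte genes 0.229% and 0.363%, and the smooth muscle and mural genes 4.88% and 5.68%. The liver gene Mir122 took 0.00133% and 0.0396%, and the neural genes Mir9 and Mir124a took no count in replicate 1 and 0.000278% in replicate 2. In bulk tissue, fewer cells of a type and less RNA per cell cannot be told apart.

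The 7 genes together took 2.53% of assigned counts in replicate 1 and 2.78% in replicate 2, a summed level of 26520 ± 1789 CPM (SD, n = 2). Their levels were far apart. Mir191 stood at 10288 CPM in replicate 1 and at 12377 CPM in replicate 2 and was the 21st most abundant microRNA gene by mean level. Mir151 held 6726 and 7902 CPM. Mir191 and Mir151 were thus both somewhat higher in replicate 2.

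Mir423 stood at 4607 CPM in replicate 1 and at 3027 CPM in replicate 2. Mir361 held 2124 and 2854 CPM. The 2 genes lay far apart in replicate 1 and close together in replicate 2.

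Mir320, whose capped precursor is known to be made without Drosha, stood at 822 CPM in replicate 1 and at 1324 CPM in replicate 2. Mir425 held 520 and 234 CPM. Mir186 held 169 and 67.2 CPM and ranked 127th by mean level. Mir425 and Mir186, the least abundant of the 7, were both higher in replicate 1.

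**Figure D1:**
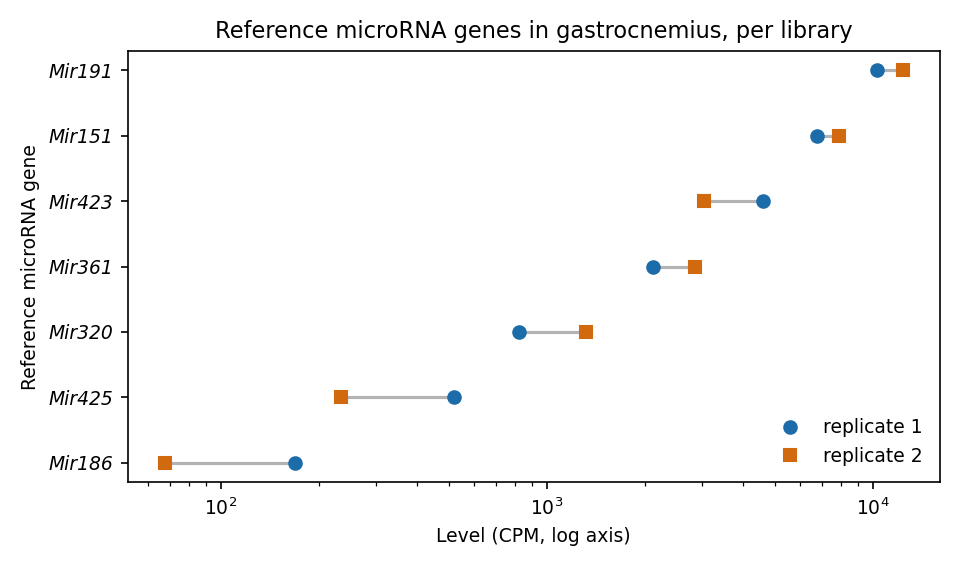
Level of each reference microRNA gene in CPM (log axis) in replicate 1 (circles) and replicate 2 (squares), with the line joining the 2 libraries. The order from Mir191 at the top, at 10288 and 12377 CPM, to Mir186 at the bottom, at 169 and 67.2 CPM, is the same in both libraries.

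The order of the levels was Mir191, Mir151, Mir423, Mir361, Mir320, Mir425, Mir186 in each library. The values of neighbours in this order did not overlap between the 2 libraries for any of the 6 neighbouring pairs. The closest mean levels were those of Mir423 and Mir361, at a ratio of 1.53, and the widest step was from Mir425 to Mir186, at 3.19. Per 100 bases of the annotated gene, Mir361 moved above Mir423, at 3555 against 3502 CPM. On that scale the 2 overlapped, with 3034 and 4077 for Mir361 and 4226 and 2777 for Mir423, and the places of the other 5 were kept. With 2 libraries against 2, no exact permutation test of levels between genes can give a two-sided p under 0.333, so none was made.

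How well do genes used as references agree between libraries with the same labels? Replicate 2 was compared with replicate 1 by the log2 ratio of CPM + 1 after TMM scaling, a library scaling that trims genes with extreme ratios. Each gene's counts entered an exact binomial test, two-sided, adjusted by Benjamini-Hochberg over the 380 genes with 10 or more counts. All 7 reference genes had an adjusted p under 0.05. Mir191, Mir151, Mir361 and Mir320 (4 genes) were higher in replicate 2, and Mir423, Mir425 and Mir186 (3 genes) were higher in replicate 1. Of all 380 genes, 61.8% passed, 30.3% higher in replicate 2 and 31.6% higher in replicate 1. Over the 107 genes whose mean level lay between those of Mir186 and Mir191, 99 passed, so passing was common at these levels. This test sets 1 library against the other, says nothing of conditions, and takes in counting error alone.

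The 4 genes higher in replicate 2 differed by less than 2-fold. Mir151 had the smallest log2 ratio, 0.33 (95% Clopper-Pearson counting interval 0.30 to 0.35), a 1.25-fold difference at an adjusted p of 1.30e-118 in the exact binomial test. Mir191 followed at 0.36 (0.34 to 0.38), or 1.28-fold, Mir361 at 0.52 (0.47 to 0.57), or 1.43-fold, and Mir320 at 0.78 (0.71 to 0.85), or 1.72-fold. The intervals of Mir151 and Mir191 overlapped, and those of Mir361 and Mir320 overlapped neither each other nor these.

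The 3 genes higher in replicate 1 spread more widely. Mir423 had a log2 ratio of −0.51 (−0.55 to −0.47), or 1.43-fold. Mir425 was at −1.06 (−1.20 to −0.92), or 2.08-fold, and Mir186 at −1.22 (−1.50 to −0.98), or 2.33-fold, with an adjusted p of 3.54e-24 in the exact binomial test. Mir425 and Mir186 were the 2 of the 7 at 2-fold or more and past the threshold, where 28.7% of the 380 genes were. They rest on the fewest reads, with 504 and 145 counts in replicate 2, and their intervals overlapped.

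The median log2 ratio of the 7 genes was 0.33 and their median absolute log2 ratio was 0.52, a 1.43-fold difference. Over all 380 genes these medians were 0.02 and 0.65, and over the 107 genes in the same range of levels −0.07 and 0.66. The ratios of the 7 covered 2.003 on the log2 scale, with an SD of 0.81 against 1.13 over all genes. Among the 380 genes, 25.5% had a smaller absolute ratio than Mir151, 30.5% than Mir191, 40.3% than Mir423, 40.5% than Mir361, 56.8% than Mir320, 70.0% than Mir425 and 76.6% than Mir186. The 7 genes were thus spread from the more to the less agreeing part of all genes. Marker genes of cell types also differed between the libraries, in both directions. Erythroid Mir451a and Mir144 (log2 ratios −2.39 and −3.69), endothelial Mir126a (−0.82) and leukocyte Mir142 (−0.69) and Mir223 (−0.23) were higher in replicate 1. Leukocyte Mir150 (0.80) and Mir155 (1.02), mural Mir143 (0.26) and Mir145a (1.00) and liver Mir122 (4.89) were higher in replicate 2. The striated muscle genes were divided, 4 higher in replicate 2, 4 higher in replicate 1 and 2 not past the threshold. Among them Mir206 (2.47), Mir499 (2.95), Mir208b (1.73) and Mir208a (3.10) were higher in replicate 2, and Mir1a-1 (−1.25), Mir1a-2 (−1.07), Mir133b (−1.04) and Mir486 (−0.22) were higher in replicate 1. The part of cell makeup in the ratios of the reference genes was not tested.

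**Figure D2:**
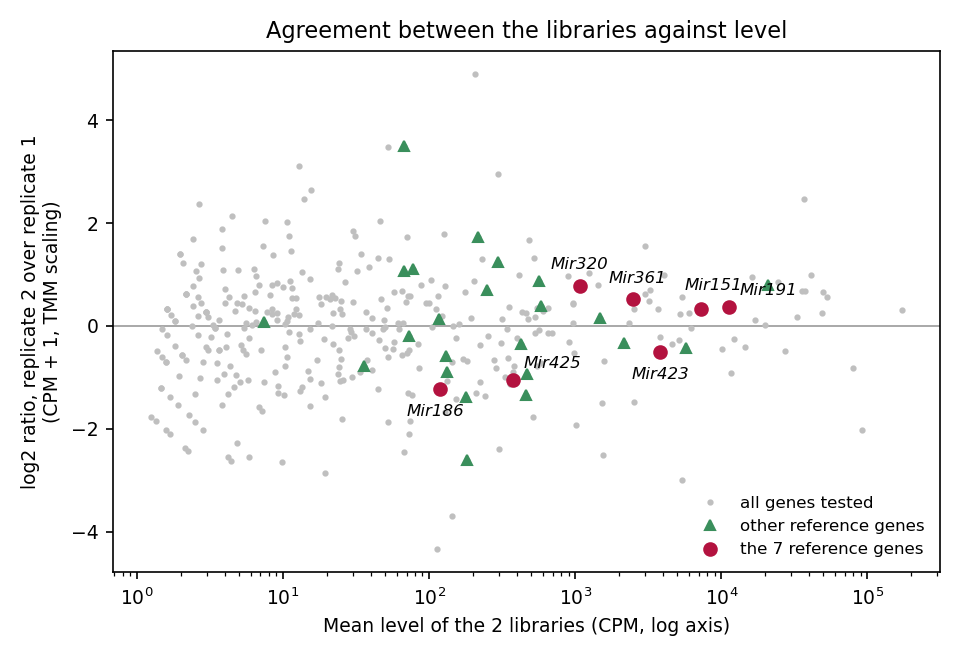
Log2 ratio of replicate 2 over replicate 1 (CPM + 1, TMM scaling) against mean level in CPM (log axis) for the 380 genes tested (grey points), the other reference genes (triangles) and the 7 reference genes (labelled circles). Mir191, Mir151, Mir361 and Mir320 lie above 0, up to 0.78, and Mir423, Mir425 and Mir186 lie below it, down to −1.22.

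Ratios between 2 reference genes in the same library need no scaling by the total, so they show the agreement of the 7 genes by itself. Mir191 and Mir151 kept the closest ratio, 1.53 counts of Mir191 per count of Mir151 in replicate 1 and 1.57 in replicate 2, a log2 change of 0.03. Of the 21 pairs, 4 changed by less than 0.25 on the log2 scale: Mir191 with Mir151, Mir191 with Mir361 (−0.16), Mir151 with Mir361 (−0.19) and Mir425 with Mir186 (0.17). At the other end, Mir320 held 4.87 counts per count of Mir186 in replicate 1 and 19.7 in replicate 2, a 4.04-fold change and the widest of the pairs.

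A change of 2-fold or more was seen in 10 of the 21 pairs (47.6%), and the median absolute change was 0.87. Over the 5671 pairs of the 107 genes in the same range of levels the share was 48.4% and the median 0.96. These pairs share genes and are a description only. By the mean absolute change against the other 6 genes, Mir151 (0.74) and Mir191 (0.75) were the most even of the 7, followed by Mir361 (0.83), Mir423 (0.88) and Mir320 (1.05). Mir425 (1.16) and Mir186 (1.30) were the least even.

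**Figure D3:**
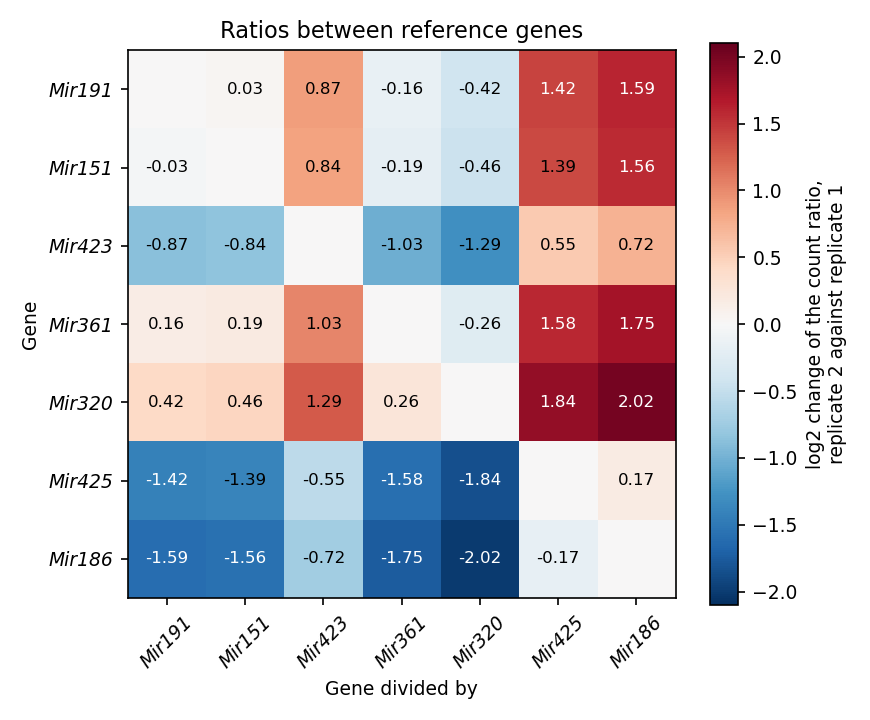
Log2 change, replicate 2 against replicate 1, of the count of the gene in the row divided by that of the gene in the column, for the 7 reference genes. The block of Mir191, Mir151 and Mir361 is pale, with changes of at most 0.19 in size, and the change of Mir320 against Mir186 is the darkest, at 2.02.

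Mir191 and Mir425, in exons of the same noncoding gene, did not keep their ratio. Mir191 had 19.8 counts per count of Mir425 in replicate 1 and 53.0 in replicate 2, a 2.68-fold change (1.42 on the log2 scale). For comparison, and chosen after these values were seen, 113 pairs of microRNA genes on the same strand lay within 10 kb of each other with 100 or more counts each. Their median absolute change was 0.60. Of the 113, 16 (14.2%) changed at least as much as Mir191 and Mir425, with that pair itself counted among them. Many of these pairs come from the same dense clusters and share genes.

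Mir191 was the only member with a microRNA gene on the other strand, Gm24083, which overlaps it. Gm24083 had no count on its own strand. In the deposited counts without strand Mir191 itself had 0 counts in both libraries, while the other 6 genes had the same counts with and without strand. Its level therefore rests on the counts by strand. None of the 7 genes had a count on the opposite strand.

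Scaled by a reference gene, the libraries would be set to different relative depths. The total of assigned counts put replicate 1 at 2.06 times the depth of replicate 2, TMM at 2.20 times and DESeq2's size factors at 2.14 times. Mir191 alone gave 1.71 times, Mir151 1.75, Mir361 1.53 and Mir320 1.28. Mir423 gave 3.14 times, Mir425 4.59 and Mir186 5.17. The geometric mean of the 7 genes gave 2.38 times, 0.12 on the log2 scale from TMM. With the TMM scaling used here this was nearer than any gene alone (the closest, Mir151, lay at 0.33). These distances move with the count filter used for TMM. With no count filter the log2 ratio was 0.18 for Mir151 and 0.21 for Mir191, and with 100 or more counts it was 0.42 for Mir151. With no count filter Mir151 and Mir191 each lay nearer to TMM than the geometric mean did. With 100 or more counts the geometric mean stayed nearest.

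How far the choice of reference moves a target was followed for Mir378a, Mir22 and the skeletal muscle gene Mir206. Mir378a was the most abundant microRNA gene by assigned counts on the gene strand. Like Mir191, it had no ratio in the counts without strand. It shares a stretch of 20 bases with Mir378c and with a transcript of Afg3l2, and multimapping reads are not counted. Mir378a held 159985 and 185734 CPM, and its log2 ratio was 0.31 with TMM. It ran from −0.47 with Mir320 as the reference to 1.54 with Mir186, and was −0.05 with Mir191 and −0.02 with Mir151, so its direction depended on the reference. Mir22 held 149674 and 34378 CPM. It was lower in replicate 2 under each of the 7 references, by 1.73-fold with Mir186 up to 7.01-fold with Mir320, against 4.08-fold with TMM.

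Mir206 held 11810 and 61540 CPM. It was higher in replicate 2 under each of the 7 references, by 3.24-fold with Mir320 up to 13.1-fold with Mir186, against 5.56-fold with TMM. With the geometric mean of the 7 genes, Mir378a was at 0.43 on the log2 scale, Mir22 at −1.91 and Mir206 at 2.59. These ratios use counts with no pseudocount.

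**Figure D4:**
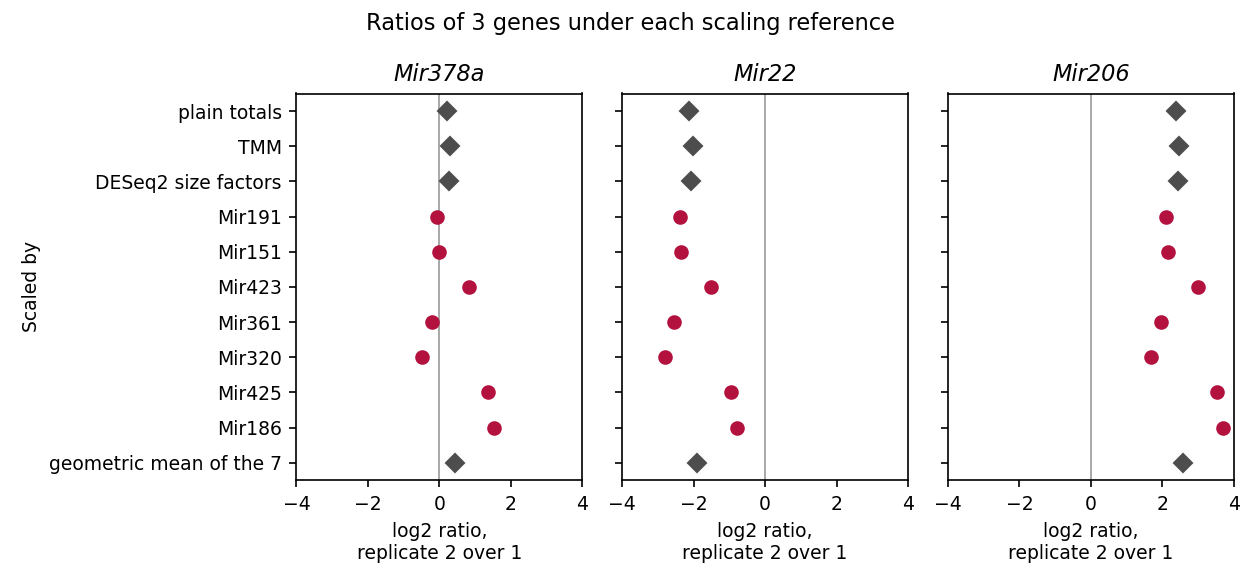
Log2 ratio of replicate 2 over replicate 1 for Mir378a, Mir22 and Mir206 (panels) when the libraries are scaled by totals, TMM, DESeq2 size factors or the geometric mean of the 7 genes (diamonds) or by a reference gene alone (circles). Points of Mir378a fall on both sides of 0, from −0.47 to 1.54, while those of Mir22 stay below 0 and those of Mir206 above it.

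Another list of microRNAs that serve as references was set beside the 7, and 24 of its 25 names were matched. Of the 23 with 10 or more counts, 20 passed the exact binomial test, divided evenly into 10 above in replicate 2 and 10 above in replicate 1. Mirlet7a-2 (log2 ratio 0.13), Mir345 (−0.19) and Mir103-2 (0.08) missed the threshold. Mirlet7a-2 passed at 0.23 (adjusted p 0.0447, exact binomial test) with a filter of 100 or more counts and under no other setting. Their median log2 ratio was 0.08 and their median absolute ratio 0.79. The more abundant of them were Mirlet7d at 15828 and 25628 CPM (log2 ratio 0.79), Mir30e at 6755 and 4726 CPM (−0.42), Mir328 at 2467 and 1832 CPM (−0.34) and Mir93 at 1434 and 1500 CPM (0.16). Mir484, a promoter-derived microRNA used as a reference in blood, held 492 and 362 CPM (−0.35).

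Of the rest with a single locus, Mir324 (log2 ratio 0.39) was higher in replicate 2, as was Mir107 (1.74), which shares 20 bases with the Mir103 loci. Mir25 (−1.38) and Mir152 (−2.61) were higher in replicate 1.

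Among the 6 references of this list with a pair of loci that both had 10 or more counts, the loci had ratios of opposite sign in 3 and of the same sign in 3. Mir16-1 held 674 and 250 CPM (log2 ratio −1.33) while Mir16-2 held 182 and 405 CPM (1.24). Mir26a-1 held 10.8 and 124 CPM (3.50) and Mir26a-2 159 and 99.7 CPM (−0.58), and Mir24-1 and Mir24-2 were at 1.11 and −0.90. Of the same sign were Mir30c-1 and Mir30c-2 (1.07 and 0.87), Mir181a-1 and Mir181a-2 (−0.78 and −0.94) and Mirlet7a-1 and Mirlet7a-2 (0.71 and 0.13). Mir103-1 and Mir103-2 had at most 33 counts in a library. These loci share 20 bases with each other or with another microRNA gene, and multimapping reads are not in the gene counts, so their levels are uncertain. The 7 genes share no such stretch with another microRNA gene.

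By level in the 2 libraries, the gene most like each reference was found as the smallest distance in log2(CPM + 1). Mir425 lay closest to its nearest gene, Mir1249 (498 and 251 CPM, distance 0.12), followed by Mir361 with Mir98 (2333 and 2753 CPM, 0.14). The nearest genes were Mir486 for Mir423 (0.21), Mir676 for Mir320 (0.29), Mir1a-2 for Mir186 (0.29), Mir744 for Mir151 (0.39) and Mir149 for Mir191 (0.46). With 2 libraries this compares a pair of values per gene.

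Outside the 7, the 5 genes with a mean of 100 CPM or more whose ratio lay nearest 0 all lay nearer to it than Mir151, the closest of the 7. They were Mirlet7c-1 (151 and 142 CPM, log2 ratio 0.00), Mir10b (20484 and 19392 CPM, 0.01), Mir125b-2 (109 and 101 CPM, −0.02), Mir1981 (162 and 155 CPM, 0.03) and Mirlet7f-2 (6541 and 5939 CPM, −0.05). Of the 5, the counting interval left out 0 for Mirlet7f-2 alone (−0.08 to −0.02). Mirlet7c-1 shares 20 bases with Mirlet7a-2, and multimapping reads are not in the gene counts, so its level is uncertain. Shared stretches were not sought for the rest, of which Mir125b-2 and Mirlet7f-2 have counterpart loci, Mir125b-1 and Mirlet7f-1. Their levels may be uncertain too. The 5 genes were ranked on this same ratio, which is a description of these libraries and moves with the scaling. Mir10b was at −0.02 with DESeq2's size factors and −0.08 with plain totals.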

How the data were processed

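MicroRNA-seq libraries with inserts under 30 nt, per the labels, were measured in 2 samples. The authors deposited a table of read counts, not normalized, for each library, made on mm10 with GENCODE M21 per the readmes. No source used here names the aligner, trimming or counter. Each table has 3 count columns. By their values they are unstranded, sense and antisense counts, and the sense counts were used. Reads in no gene were kept out of totals (multimapping 73.8% and 70.2%, unmapped 7.93% and 6.76%, no feature 2.66% and 3.24%).

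CPM were computed over all gene rows, with no length scaling. Ratios between the libraries were taken on log2(CPM + 1) after TMM scaling in edgeR, which moved ratios up by 0.0932 against plain totals. With 1 library on each side no quasi-likelihood fit was possible, so an exact two-sided binomial test was used over genes with 10 or more counts, adjusted by Benjamini-Hochberg, at a threshold of 0.05. It was tested on simulated counts with known changes and counting error alone, scaled by the unchanged genes. That check cannot show how the test behaves with TMM scaling or with other variation between libraries. Shared stretches of 20 bases were sought on both strands in all GENCODE M21 transcripts outside the gene's own locus.

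The members, lists and tests were chosen with earlier results of these data known. Named were the members, microRNA genes within 10 kb or overlapping, the nearest gene in level to each, the 5 genes of 100 CPM or more nearest a ratio of 0, the other reference list and 3 example genes. Alternatives were DESeq2's size factors, plain totals, counts without strand, other count filters and pseudocounts (0.1 and 5 CPM), replicate 1 thinned, totals without the most abundant gene, each library alone and scaling by gene length. Tools were R 4.3.3, edgeR 4.0.16, DESeq2 1.42.0, Python 3.11.15, scipy 1.17.1, numpy 2.4.6, matplotlib 3.10.9 and pandas 2.3.3.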

Additional observations from a re-analysis of the deposited data

Results flagged for a closer look

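The column of counts on the opposite strand, which enters no level above, held 45705 counts for Gm24083 in replicate 1 and 26688 in replicate 2. These equal the counts of Mir191 on its own strand in the same libraries, and Gm24083 covers Mir191 on the other strand.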

How the results depend on the processing

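All 7 reference genes kept their direction and stayed past the threshold under each alternative run, except that Mir191 has no value in the counts without strand, where 6 were tested and 3 were higher in each library. The order of levels was kept with either library alone, and 5 of 7 places were kept per 100 bases. The median log2 ratio of the 7 was 0.29 with DESeq2's size factors, 0.23 with plain totals, 0.18 with no count filter, 0.42 with 100 or more counts, 0.40 with replicate 1 thinned and 0.30 without the most abundant gene. It was −0.12 in the counts without strand, the other sign, with Mir191 not among the genes. The median absolute ratio was 0.61 with plain totals, 0.65 without strand, 0.63 with no filter, 0.62 with 100 or more counts and 0.59 thinned. The summed level was 21072 CPM without strand and 32094 CPM with totals that leave out the most abundant gene. Without strand Mir191 added 0 to the sum. The other 6 genes rose in CPM there on the same counts over a smaller total, Mir151 from 7314 to 10137 CPM.

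Of other named genes, Mir10b was at −0.025, −0.079 and −0.13 with DESeq2's size factors, plain totals and no filter, and at 0.11 and 0.078 with 100 or more counts and thinned, past the threshold in each, in either direction. Mirlet7a-2 passed with 100 or more counts (0.23). Mirlet7f-2 was at 0.052 with 100 or more counts and 0.0098 thinned. Mir93 did not pass with plain totals (0.06) or no filter (0.01). The cause of these shifts was not tested. No ratio was obtained in the counts without strand for Mir378a, Mir30e, Mir486, Mir24-1, Mir24-2 and Mir1a-2. Among the 7, depth limits the ratio of Mir186 most, with 145 counts in replicate 2.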
